A study of Mus musculus with 4 samples.

Results

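The genes described here are 10 immediate early genes, namely *Fos*, *Fosb*, *Fosl2*, *Jun*, *Junb*, *Jund*, *Atf3*, *Egr1*, *Ier2* and *Dusp1*. They were chosen by name and not by their values, though earlier results of these data were known. All 10 were found among the 18364 genes of the table. RNA was sequenced from sorted large peritoneal macrophages (LPMs), which live in the serous cavity of the mouse abdomen. The labels give 2 WT and 2 Rxra-KO libraries. All mice were C57BL/6 and 8 weeks old. The labels give the genotypes as wild type and *Rxra*-/-. In the methods of the study, the knockout is LysM Cre+ *Rxra* fl/fl and its control is *Rxra* fl/fl without Cre, so floxed alleles are shared by both groups. Cre is driven from the *Lyz2* (LysM) locus, which is active in myeloid cells at large and not only in LPMs. The retinoid X receptor RXRα, encoded by *Rxra*, is a nuclear receptor that pairs with other receptors on DNA. Whether animals were pooled for a library is not given in the sources used here, so the spread between libraries may be partly technical.

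Immediate early genes are switched on within minutes of a signal, from factors already present in the cell, and their RNAs decay fast. FOS, JUN and ATF proteins join in pairs through leucine zippers to form the transcription factor AP-1, and EGR1 is a zinc finger factor of the same early wave. MAP kinases and the serum response factor carry much of the signal to these genes, and DUSP1 closes the loop by removing phosphate from MAP kinases. In macrophages the same genes respond to inflammatory stimuli and also to handling, such as lavage, staining and sorting. Their levels were therefore compared between genotypes and between single libraries, to see whether such a response differed among the 4 libraries.

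The values are normalised read counts, scaled for library size, from which whole reads could be recovered. Depth was low, between 629030 and 1047021 reads per library, and 1 read was worth between 0.993 and 1.51 units. *Rxra* went against the label, with 31.0 and 30.9 in WT and 50.4 and 77.0 in the libraries labelled Rxra-KO (log2 fold change 0.99, limma adjusted p = 0.183). These counts are per gene and do not single out the deleted exons, so they cannot show whether the deletion took place. The study checked deletion by qPCR with primers around the deleted exons, in mice that also lacked *Rxrb*. *Lyz2*, the Cre locus gene, had 14263 and 11591 in WT and 6386 and 6230 in those labelled Rxra-KO (log2 fold change -1.03, limma adjusted p = 0.00163). Of 10 LPM markers 9 were analysed, *Adgre1*, the F4/80 gene, not being among them, and all 9 were detected. Their summed level was 37126 and 39361 in WT against 19438 and 21574 in the libraries labelled Rxra-KO, with 6 of the 9 called lower, 0 called higher and 2, *Csf1r* and *Cd14*, higher without overlap but not called. The summed level of 9 markers of small peritoneal and monocyte-derived macrophages was 755 and 2763 in WT and 3283 and 5219 in those labelled Rxra-KO, with 5 of the 9 called higher and 1, the MHC class II gene *H2-Ab1*, called lower. Of all genes, 1.32% were called higher and 0.969% lower, by the rule given below. WT replicate 2 stood apart from WT replicate 1 in *H2-Ab1*, at 2484 against 366, which makes up most of its sum. For *H2-Ab1* the groups overlapped. In bulk RNA, fewer cells of a type and less RNA per cell cannot be told apart. The part of these marker differences in the results that follow was not tested.

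The promoters are shown because members that share a control element could be read beside each other. Of the 10 genes, 8 were used here with a RefSeq promoter (build GRCm38.p6), taken as the 250 bases before the annotated start and searched on both strands. *Egr1* and *Ier2* were not among the 8, so their promoters were not searched. The core TGACGT of the cAMP response element (CRE), which CREB and ATF factors and some AP-1 pairs bind, was found before *Atf3*, *Fos* and *Dusp1*, in 3 of 8, and stood in 6.47% of 32851 promoters. The AP-1 site TGACTCA (4.46% of promoters), the EGR core GTGGGCG (7.02%) and the CArG box of the serum response factor (1.47%) had a match in 0 of the 8, which says only that these letters are not in this window. The *Atf3* promoter (chr1:191183334-191183583, minus strand), the *Fos* promoter (chr12:85473640-85473889, plus strand) and the *Dusp1* promoter (chr17:26508473-26508722, minus strand) read as follows, 5′ to 3′ on the strand of the gene, with the CRE core in capitals.
Atf3: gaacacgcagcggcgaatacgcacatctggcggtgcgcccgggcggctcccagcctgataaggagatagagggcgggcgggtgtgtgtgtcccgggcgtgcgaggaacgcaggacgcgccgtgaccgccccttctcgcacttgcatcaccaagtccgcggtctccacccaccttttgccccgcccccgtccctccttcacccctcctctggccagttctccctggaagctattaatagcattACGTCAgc
Fos: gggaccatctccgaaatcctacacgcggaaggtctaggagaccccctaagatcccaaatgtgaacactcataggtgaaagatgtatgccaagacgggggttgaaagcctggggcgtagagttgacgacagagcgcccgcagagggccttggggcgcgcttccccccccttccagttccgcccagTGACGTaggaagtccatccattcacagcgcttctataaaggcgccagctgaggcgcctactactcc
Dusp1: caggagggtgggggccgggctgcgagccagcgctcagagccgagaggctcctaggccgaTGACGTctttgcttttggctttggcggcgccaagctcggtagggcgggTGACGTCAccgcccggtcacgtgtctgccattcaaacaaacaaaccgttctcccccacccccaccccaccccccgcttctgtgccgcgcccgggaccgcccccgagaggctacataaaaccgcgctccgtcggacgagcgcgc
The *Atf3* match, on the opposite strand, lies 8 to 3 bases before the start, and the *Fos* match lies 66 to 61 bases before it. *Dusp1* holds 3 matches, at 191 to 186, at 143 to 138 and, on the opposite strand, at 141 to 136 bases before the start, the last 2 overlapping in 1 palindrome.

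Most of the 10 genes had few reads, as did most genes of the table. Only *Fosl2* had over 20 reads in every library, 6 genes had a mean of at least 10 reads and 4 had fewer, while the median over all genes and libraries was 9 reads. Of the 10, 7 had a mean above that of the median gene (12.0 units). On the scale of normalised reads per kb of exon (GENCODE gene models), where levels of different genes can be set side by side, the mean over all libraries was 11.4 for *Atf3*, 11.1 for *Dusp1*, 9.39 for *Fosl2*, 8.30 for *Ier2*, 6.10 for *Fos*, 4.62 for *Egr1* and 4.41 for *Jun*, with *Junb* between *Fos* and *Egr1*. *Jund* (0.997) and *Fosb* (0.658) were the lowest by this measure. In WT the order was led by *Dusp1* (16.9 per kb), *Atf3* (14.0) and *Ier2* (11.6), although *Dusp1* led through replicate 1 alone (25.4) and in replicate 2 stood at 8.35, below *Ier2* (11.8), *Fosl2* (11.3) and *Atf3* (10.8). In the libraries labelled Rxra-KO it was led by *Fosl2* (8.96), *Atf3* (8.86) and *Jun* (6.30). Neighbours in these orders were not tested against each other.

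**Figure D1:**
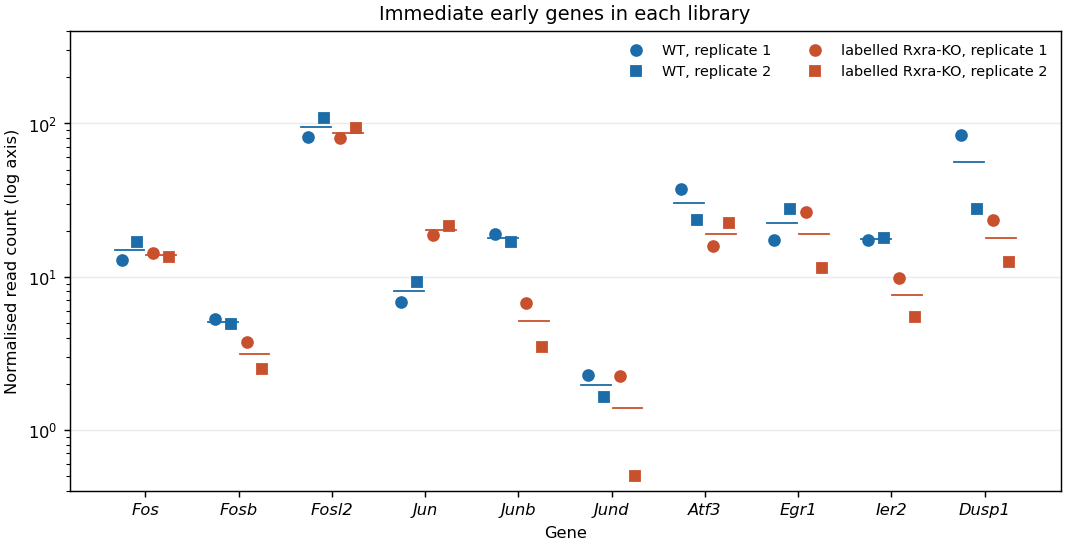
Normalised read count (log axis) of each of the 10 genes in each of the 4 libraries, with WT in blue and the libraries labelled Rxra-KO in red, circles for replicate 1, squares for replicate 2 and a short line at each group mean. *Jun* sits higher in both red libraries (18.8 and 21.4) than in both blue ones (6.81 and 9.22), *Junb* and *Ier2* sit lower in both, and the 2 WT libraries are far apart for *Dusp1* (84.0 and 27.7).

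Of the 10 genes, 1 passed the test, *Dusp1*, which was lower in the libraries labelled Rxra-KO. To be called, a gene needed a limma adjusted p below 0.05 across all 18364 genes together with a log2 fold change of 0.6 or more in size. By this rule 2.29% of all genes were called, 1.32% higher and 0.969% lower, so 1 of 10 is a count from which little can be read. An unadjusted p under 0.05 was seen for 3 of the 10, and for 10.1% of all genes. The fitted change was below 0 for 7 and above 0 for 1 of the 8 genes with no group at the floor of 3 reads. Of all genes, 48.9% were below 0. The groups did not overlap for 6 of the 10 genes, with 5 lower and 1 higher in the libraries labelled Rxra-KO, while 38.1% of all genes did not overlap, 19.3% being lower and 18.8% higher. The median log2 fold change was -0.47 over those 8 genes, -0.49 over all 10 as fitted and -0.35 with groups at the floor set to it, and it was 0.02 over all genes.

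Among the FOS proteins, which bind DNA only when paired with a JUN partner, no change was called. *Fos*, the best known early response gene, had a normalised read count of 12.9 and 16.8 in WT and of 14.3 and 13.4 in the libraries labelled Rxra-KO, from 8, 15, 9 and 13 reads. Both libraries labelled Rxra-KO lay between the WT libraries. The log2 fold change of *Fos* was -0.08 (95% interval -1.21 to 1.04, limma adjusted p = 0.993), so a log2 change of 1 in either direction was within the error. *Fosl2*, which encodes FRA-2, a FOS protein that is less transient than FOS, was the most deeply covered, with 81.0 and 109 in WT and 80.6 and 92.9 in those labelled Rxra-KO. The groups overlapped, and the log2 fold change of *Fosl2* was -0.12 ± 0.29 (SE, 95% interval -0.70 to 0.46, adjusted p = 0.968), the narrowest interval of the 10. *Fosb* was near the limit of detection. WT held 3 and 4 of its reads and the libraries labelled Rxra-KO held 2 each. Its ratio of pooled reads, scaled for depth, was 0.541 with a counting interval of 0.116 to 2.13, which covers counting error only.

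The JUN proteins can pair with each other as well as with FOS proteins. *Jun* had 6.81 and 9.22 in WT and 18.8 and 21.4 in the libraries labelled Rxra-KO, from 4, 8, 12 and 21 reads. Both libraries labelled Rxra-KO were above both WT libraries, and *Jun* was the only gene of the 10 with that order. Its mean was 8.02 ± 1.70 in WT (SD, n = 2) and 20.1 ± 1.79 in those labelled Rxra-KO (SD, n = 2), and the log2 fold change of 1.24 ± 0.60 (SE, 95% interval 0.06 to 2.42) did not pass the test over all genes (limma adjusted p = 0.447). *Junb*, whose protein often dampens JUN on shared targets, had 18.9 and 16.8 in WT and 6.78 and 3.48 in the libraries labelled Rxra-KO, from 12, 15, 4 and 3 reads. Here both libraries labelled Rxra-KO were below both WT libraries. The mean of *Junb* was 17.9 ± 1.49 in WT (SD, n = 2) against 5.13 ± 2.33 (SD, n = 2), and its log2 fold change of -1.68 ± 0.67 (SE, 95% interval -2.99 to -0.36) did not pass either (adjusted p = 0.260). *Jund*, commonly the most constant member of the family, had 1, 1, 1 and 0 reads, so both groups were at the floor and no fold is given. A count of 0 in the deeper library labelled Rxra-KO allows up to 3.66 units, the upper end of its 95% counting interval.

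*Jun* and *Junb* thus differed in opposite directions, a contrast chosen after their values were seen. Per kb of exon, *Junb* stood above *Jun* in both WT libraries, at 8.23 against 2.14 in replicate 1 and 7.31 against 2.89 in replicate 2. In the libraries labelled Rxra-KO the order was turned, with *Jun* above *Junb* at 5.90 against 2.94 and 6.70 against 1.51. The contrast rests on 3 to 21 reads per gene and library, and no test of it was made.

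ATF3 is a stress-induced partner of JUN proteins that represses inflammatory genes in macrophages. *Atf3* had 37.1 and 23.3 in WT and 15.8 and 22.3 in the libraries labelled Rxra-KO, from 24, 21, 10 and 22 reads. Both of the latter were below both WT libraries, though 22.3 and 23.3 lie less than 1 unit apart. The log2 fold change of *Atf3* was -0.62 (95% interval -1.53 to 0.29, adjusted p = 0.751).

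EGR1 is the early zinc finger factor that the MAP kinase and serum response factor route induces. *Egr1* had 17.4 and 27.7 in WT and 26.3 and 11.4 in the libraries labelled Rxra-KO, from 11, 25, 17 and 11 reads. The highest value was in WT and the lowest in a library labelled Rxra-KO, but each group held 1 high and 1 low library and the groups overlapped. The log2 fold change of *Egr1* was -0.32 (95% interval -1.30 to 0.67, adjusted p = 0.936). The ratio of replicate 2 to replicate 1 among the libraries labelled Rxra-KO was 0.427, with a counting interval of 0.181 to 0.966.

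IER2 is a small nuclear protein of the early response. *Ier2* had 17.4 and 17.9 in WT and 9.79 and 5.46 in the libraries labelled Rxra-KO, from 11, 16, 6 and 5 reads. The WT libraries were close to each other and both were above both of those labelled Rxra-KO. The mean was 17.7 ± 0.345 in WT (SD, n = 2) against 7.62 ± 3.06 (SD, n = 2), and the log2 fold change of *Ier2* was -1.16 (95% interval -2.39 to 0.07, adjusted p = 0.541).

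DUSP1, also named MKP-1, is the phosphatase that switches off p38 and JNK, the kinases that activate AP-1. *Dusp1* had 84.0 and 27.7 in WT and 23.3 and 12.4 in the libraries labelled Rxra-KO, from 55, 25, 15 and 12 reads. The groups did not overlap, but WT replicate 2 was nearer to the libraries labelled Rxra-KO than to the other WT library. Its mean was 55.8 ± 39.9 in WT (SD, n = 2) and 17.9 ± 7.72 in those labelled Rxra-KO (SD, n = 2), and *Dusp1* fell by 1.45 ± 0.43 on the log2 scale (SE, 95% interval -2.30 to -0.60, limma adjusted p = 0.0409). The ratio between the WT libraries was 0.326, with a counting interval of 0.195 to 0.532, so the libraries of 1 group differed beyond counting error. Without WT replicate 1 the log2 fold change of *Dusp1* was -0.67 (adjusted p = 0.838), and without replicate 2 of the libraries labelled Rxra-KO it was -1.02 (adjusted p = 0.531). In such fits the lone library is assumed to vary like those of the other group. Across all alternatives tried, its adjusted p ranged from 0.00153 to 0.838.

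**Figure D2:**
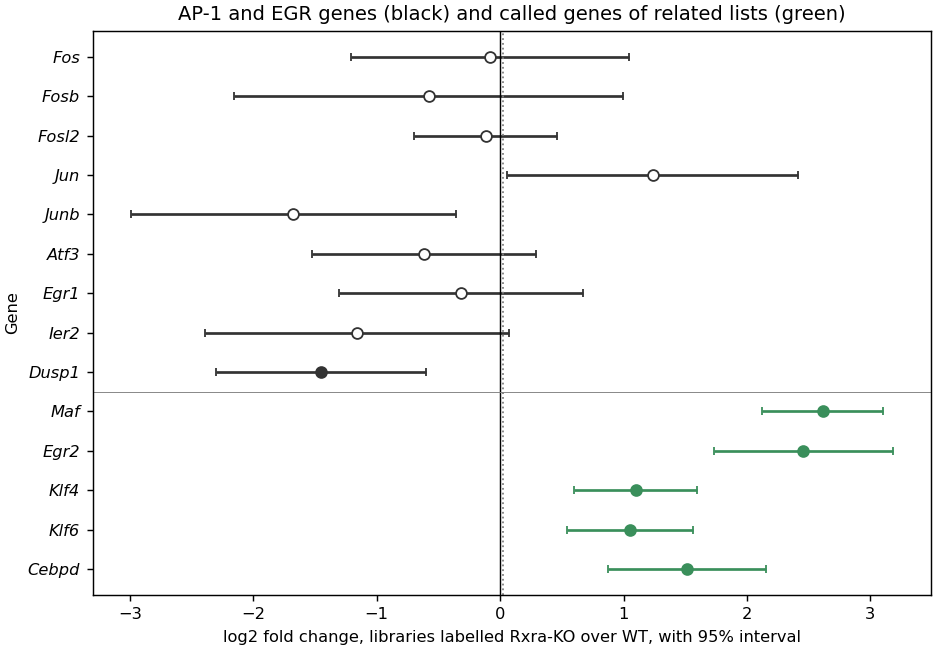
Log2 fold change of the libraries labelled Rxra-KO over WT, with its 95% interval from limma, for 9 of the 10 genes (black; *Jund*, at the floor in both groups, is left out) and for the called genes of related lists (green); filled points passed the test, and the dotted line is the median of all genes, 0.02. *Dusp1* is the only filled black point, at -1.45, while *Jun* at 1.24 and *Junb* at -1.68 lie on opposite sides with wide intervals.

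With each library left out in turn, *Jun* stayed above 0, at 1.04 to 1.43, and *Junb*, at -2.07 to -1.28, *Ier2*, at -1.53 to -0.79, and *Atf3*, at -0.94 to -0.30, stayed below it. None of these passed the test over all genes in any of these fits. *Fos* ranged from -0.26 to 0.10, *Fosl2* from -0.33 to 0.09 and *Egr1* from -0.89 to 0.25, so the sign of these small differences hung on single libraries. With 2 libraries in a group, a direction that every fit shares still rests on 2 values.

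**Figure D3:**
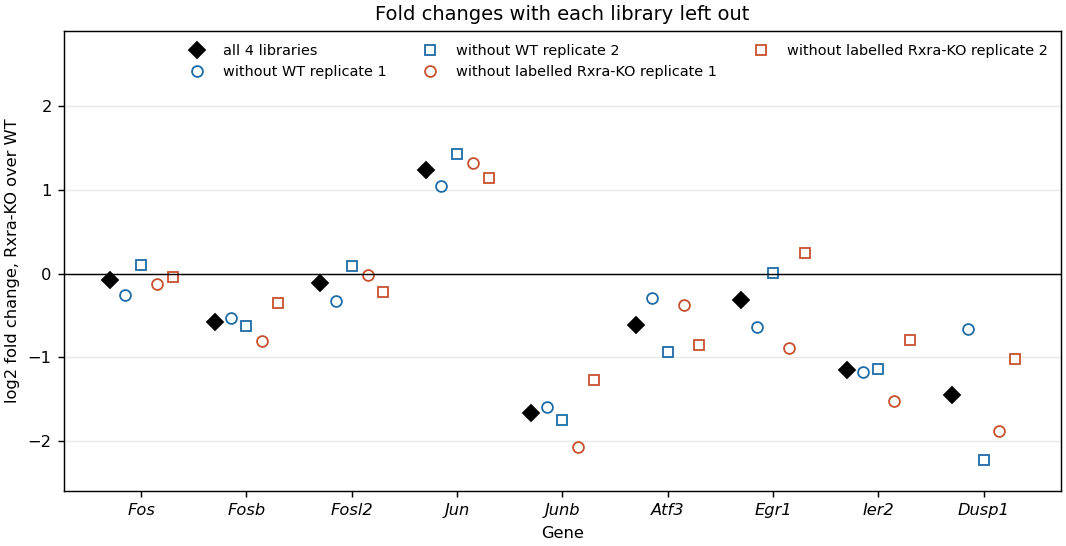
Log2 fold change of 9 of the genes with all 4 libraries (black diamonds) and with each library left out (open symbols, blue for WT and red for the libraries labelled Rxra-KO, circles for replicate 1 and squares for replicate 2). *Dusp1* moves from -1.45 to -0.67 without WT replicate 1 and to -2.23 without WT replicate 2, and *Fos*, *Fosl2* and *Egr1* cross 0.

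Between the libraries of a group, the genes did not move as a block. In WT, 5 were lower and 5 higher in replicate 2 than in replicate 1, with *Dusp1* and *Atf3* lower and *Egr1* and *Fosl2* higher. In the libraries labelled Rxra-KO, 7 were lower and 3 higher in replicate 2. The median absolute difference between replicates was 0.37 in WT and 0.61 in those labelled Rxra-KO on the log2 scale, against 0.54 and 0.48 over all genes. For 6 of the 10, a difference between replicates was larger than the difference between the groups. The counting interval of the ratio between replicates left out 1 for *Dusp1* in WT and for *Egr1* among the libraries labelled Rxra-KO, and for no other of the 10 in the group concerned. By single library, WT replicate 1 was the highest for 5 genes and WT replicate 2 for 4, while replicate 2 of those labelled Rxra-KO was the lowest for 6.

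Summed over the 10 genes, the share of reads was 0.0279% (exact 95% interval 0.0240 to 0.0323) and 0.0243% (0.0212 to 0.0276) in WT. In the libraries labelled Rxra-KO it was 0.0205% (0.0171 to 0.0244) and 0.0174% (0.0149 to 0.0201). The sums came from 182, 230, 129 and 182 reads, both libraries labelled Rxra-KO were below both WT libraries, and the intervals of WT replicate 2 and of replicate 1 of those labelled Rxra-KO overlapped. The group means were 0.0261% ± 0.00255 (SD, n = 2) and 0.0189% ± 0.00221 (SD, n = 2). *Dusp1* carried much of this, since without it the shares were 0.0195% and 0.0216% in WT against 0.0181% and 0.0162%, and the difference between the group means went from -0.00714 to -0.00337 percentage points. No p is given for a sum over genes chosen by name.

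The other lists tied to handling did not follow the same order. Of 32 further immediate early genes 31 were analysed, and their summed share was 0.205% and 0.254% in WT and 0.300% and 0.270% in the libraries labelled Rxra-KO, higher in both of the latter. Without its 3 called genes, an alternative added after seeing the data, the share was 0.175% and 0.228% in WT and 0.223% and 0.220%, and the groups overlapped. Of the 31 genes, 9 were higher and 9 lower in the libraries labelled Rxra-KO without overlap, against 18.8% and 19.3% of all genes. For 15 heat shock genes, whose chaperone products respond to heat and to damaged protein, the share was 0.562% and 0.547% in WT and 0.619% and 0.539%, with groups that overlapped. Such sums weigh abundant genes most, and a change in the rarer genes could be missed. In WT replicate 1, *Hspa8* held 1362 of the 3667 heat shock reads, and *Btg1* held 280 of the 1335 reads of the further early genes. So WT replicate 1 was highest for the 10 genes and lowest for the further early genes, and no library was the highest or the lowest in all 3 sets. Of the libraries labelled Rxra-KO, replicate 1 was above replicate 2 in all 3 sets. The shares were 0.0205% against 0.0174% for the 10 genes, 0.300% against 0.270% for the further early genes and 0.619% against 0.539% for heat shock genes. Counting intervals overlapped for the 10 genes and not for the further early or heat shock genes. Without the 3 called genes the further early genes stood at 0.223% against 0.220%, with overlap. The cause was not tested.

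**Figure D4:**
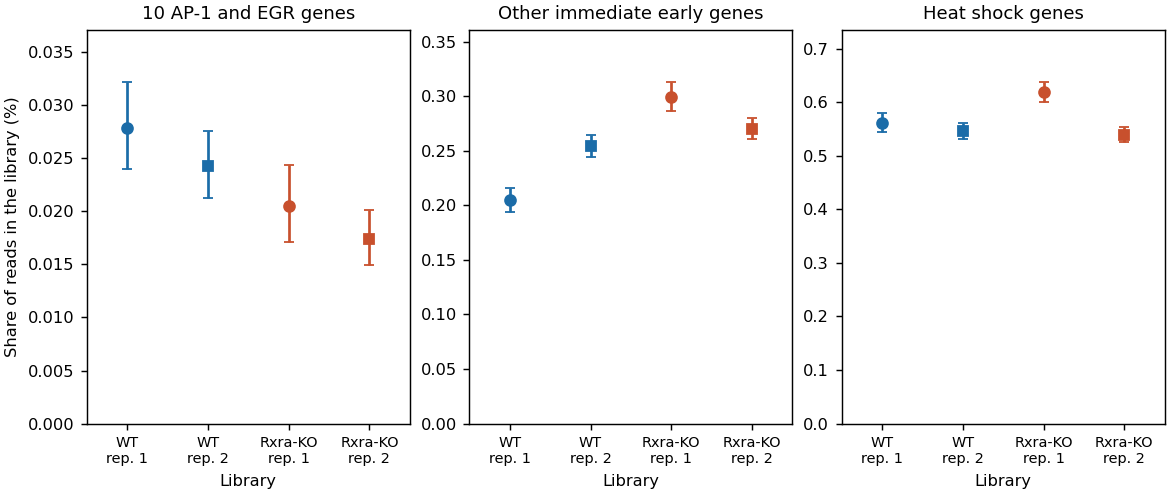
Share of the reads of each library (%) taken by the 10 AP-1 and EGR genes, by 31 other immediate early genes and by 15 heat shock genes, with exact 95% intervals of counting error; each panel has its own axis from 0. The 10 genes run from 0.0279% in WT replicate 1 to 0.0174% in replicate 2 of the libraries labelled Rxra-KO, and the other early genes from 0.205% to 0.300%.

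Of 18 other AP-1 and leucine zipper partners, 1 was called higher and 0 lower, against 1.32% and 0.969% of all genes. The median log2 fold change of the 18 was 0.24. The called gene was *Maf*, a large zipper factor of resident macrophages, with 116 and 64.5 in WT and 579 and 493 in the libraries labelled Rxra-KO. It rose by 2.61 ± 0.25 on the log2 scale (SE, limma adjusted p = 1.69e-18), with both libraries of the latter group far above both WT libraries. *Nfe2l2*, which encodes the oxidative stress factor NRF2, had a log2 fold change of 0.19 (adjusted p = 0.896), *Bach1*, its haem-sensing antagonist, of 0.23 (adjusted p = 0.889), and the small partner *Mafg* of -0.31 (adjusted p = 0.807).

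Among 7 other EGR and NR4A factors and corepressors, 1 was called higher and 0 lower, against 1.32% and 0.969% of all genes. The median log2 fold change of the 7 was 0.12. *Egr2*, an EGR factor tied to macrophage activation and differentiation, had 38.6 and 11.4 in WT and 249 and 58.1 in the libraries labelled Rxra-KO, from 25, 10, 165 and 58 reads. Both of the latter were above both WT libraries, but they were also far apart from each other. *Egr2* rose by 2.46 ± 0.37 on the log2 scale (SE, limma adjusted p = 4.74e-08), an error drawn mostly from genes of like level. In limma without a trend its adjusted p was 0.543. Without replicate 1 of the libraries labelled Rxra-KO the log2 fold change of *Egr2* was 1.42. *Egr3* had 14.4 and 9.22 in WT and 20.3 and 13.4 in those labelled Rxra-KO (log2 fold change 0.48, adjusted p = 0.896), and *Nr4a1*, an orphan receptor of the same early wave, had 3.79 and 8.14 against 23.3 and 5.46 (0.92, adjusted p = 0.765). *Nab1* and *Nab2*, corepressors that bind EGR factors, had log2 fold changes of -0.19 (adjusted p = 0.954) and -0.14 (adjusted p = 0.981). *Egr1* had its higher value of the libraries labelled Rxra-KO in replicate 1, as did *Egr2*, *Egr3* and *Nr4a1*.

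Of the 31 further immediate early genes, 3 were called higher and 0 lower, against 1.32% and 0.969% of all genes. The median log2 fold change of the 31 was 0.22. *Cebpd*, a zipper factor of inflammatory and differentiating macrophages, had 47.7 and 27.7 in WT and 100.1 and 112 in the libraries labelled Rxra-KO (log2 fold change 1.52, adjusted p = 0.000608), and without WT replicate 2 the value was 1.13 (adjusted p = 0.122). The zinc finger factors *Klf4* (1.10, adjusted p = 0.00183) and *Klf6* (1.05, adjusted p = 0.00468) were the others. Both are named by the study itself. *Klf4* without replicate 1 of those labelled Rxra-KO was at 0.78 (adjusted p = 0.411) and *Klf6* at 0.79 (adjusted p = 0.443). *Nfkbiz*, an NF-κB cofactor, missed the threshold at 0.90 (adjusted p = 0.0564), *Btg1*, *Mcl1* and *Klf10* were at 0.29, 0.22 and -0.39, and none of these was called. Between the groups, *Maf*, *Egr2*, *Cebpd*, *Klf4* and *Klf6* differed in the direction of the marker sum of small peritoneal and monocyte-derived macrophages. Within the groups, *Maf*, *Egr2* and *Klf6* were lower in replicate 2 of both, where that sum was higher. *Klf4* was higher in replicate 2 of WT only, and *Cebpd* in replicate 2 of the libraries labelled Rxra-KO only. In WT the rise of the sum was mostly *H2-Ab1*, itself called lower in the libraries labelled Rxra-KO, though with groups that overlapped. Of the 9 markers in the sum, 5 had a log2 fold change above 0 and 4 below it, so the sum mixes genes of opposite direction. The part of the marker differences in these values was not tested.

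**Figure D5:**
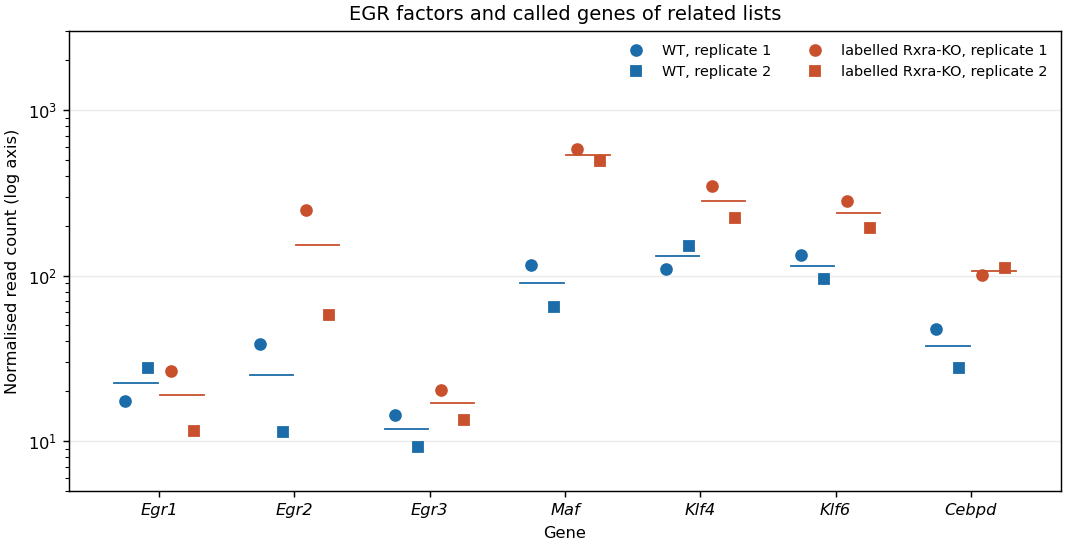
Normalised read count (log axis) of *Egr1*, *Egr2*, *Egr3*, *Maf*, *Klf4*, *Klf6* and *Cebpd* in each library, with colours and symbols as in the plot of the 10 genes and a short line at each group mean. *Maf* reaches 579 and 493 in the libraries labelled Rxra-KO against 116 and 64.5 in WT, whereas *Egr1* overlaps between the groups.

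Upstream of AP-1, 0 of 26 genes of the MAP kinase route were called in limma, against 2.29% of all genes. In this route 4 genes had an unadjusted p under 0.05, against 10.1% of all genes, and the median log2 fold change was 0.25. Among its most abundant members were the GTPase *Nras* (0.24), the kinase kinase *Map2k2* (0.53) and *Mapk9* (0.31), which encodes JNK2, on the log2 scale. Their adjusted p was 0.845, 0.387 and 0.811. Of 9 dual specificity phosphatases besides *Dusp1*, 0 were called in limma and 0 had an unadjusted p under 0.05, with a median of -0.05. *Dusp16*, a JNK phosphatase, was at 0.77 (adjusted p = 0.575), *Dusp7* at 0.41, *Dusp22* at 0.31 and *Dusp3* at -0.19. Of 15 heat shock genes 0 were called in limma, with 1 at an unadjusted p under 0.05 and a median of 0.15. The most abundant, *Hspa8*, had 2063 and 2206 in WT and 1984 and 1934 in the libraries labelled Rxra-KO (-0.12), and *Hsp90ab1* (0.18), *Dnaja1* (0.31) and *Hsp90aa1* (-0.14) were also within their error.

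By pattern over the 4 libraries, the gene nearest to *Fos* among the 10 was *Fosl2*, with a root mean square difference of 0.11 between their centred log2 values, and the farthest was *Dusp1*, at 1.004. Among 2842 genes outside the list with a mean of at least 50 reads, the nearest were *Prrc2c* (0.020), *Ascc2* (0.025), *Lrrfip2* (0.043), *Nsd1* (0.044) and *Tyms* (0.045). The counting error of *Fos*, 5.23 to 23.9 units in WT replicate 1, is wider than these distances, so the order is a description over 4 libraries.

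Markers of 6 other cell types that a sort could carry along, B cells, T cells, mast cells, neutrophils, mesothelial cells and eosinophils, were low. Of 36 such markers 24 were analysed, of which 21 had a mean under 10 reads. The T cell gene *Cd2* was the only 1 called, and it was higher in the libraries labelled Rxra-KO. Of all genes, 2.29% were called in either direction and 1.32% were called higher. The summed level of these markers was 256 and 269 in WT and 248 and 227 in the libraries labelled Rxra-KO, so the groups differed little in it. The neutrophil list rested on 1 of 6 markers and says little.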

How the data were processed

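LPMs (F4/80+ MHCII- CD102+) were sorted by the authors, with azide in the sort buffer, and RNA was amplified with SMART-Seq v4, which carries neither molecular identifiers nor strand. Per the methods, reads were quantified with Kallisto (0.43.0) and tximport and scaled by TMM. Samples that did not cluster with their group were excluded by the authors. A human build, GRCh38, is named for these mouse libraries, so the reference was not settled. The deposited signal is (reads + 0.5) over a scaled library size, and 100% of values were within 0.001 of whole reads.

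Each gene was fitted with limma (3.58.1) with a trend on log2(value + 1), a scale that understates changes of low genes, with 227 prior and 2 residual degrees of freedom. The SE, intervals and p of this fit thus rest mostly on genes of like level, and little on the spread of a gene's own libraries. Two-sided p-values were adjusted by Benjamini and Hochberg's method across 18364 genes, and a filter of a value of at least 1 in 2 libraries removed 0 genes. With 2 against 2, an exact permutation p cannot go below 0.333. edgeR (4.0.16), DESeq2 (1.42.0), voom, other pseudocounts (0.1 and 5), scalings and filters, a replicate block and each library left out were tried. Genes named outside the 10 are those called in each list and up to 4 of its most abundant, some of which are not reported here. The members and lists were chosen with earlier results of these data known. Counting intervals, intervals of shares and floors cover counting error only. Replicates follow the sample titles (1 and 2), and the table numbers them 2 and 3.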

Additional observations from a re-analysis of the deposited data

How the results depend on the processing

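Both depth and the spread between 2 libraries limit these results, and only 1 of the 10 genes had over 20 reads in every library. DESeq2 gave no adjusted p for *Fos*, *Fosb*, *Jun*, *Junb*, *Egr1*, *Atf3* and *Ier2*, which were counted as not called there. Of 143 log2 fold changes under the alternatives, over the 9 genes other than *Jund*, 133 kept their direction and their side of the threshold. Of the rest, 6 lost the call, all for *Dusp1*, and 4 changed sign. Those 4 were *Fos*, *Fosl2* and *Egr1* (0.0015) without WT replicate 2 and *Egr1* without replicate 2 of the libraries labelled Rxra-KO, and none was called. With each library left out, *Fos* ranged from -0.26 to 0.098, *Fosl2* from -0.33 to 0.093 and *Egr1* from -0.89 to 0.25. The number of the 10 genes called was 0 with DESeq2 (adjusted p of *Dusp1* 0.191), with voom (0.0549), on genes whose mean value reached 10 (0.0675) and without a trend (0.615), and 1 with edgeR (0.00871). With each library left out it was 0 to 1, being 0 without WT replicate 1 and without replicate 2 of those labelled Rxra-KO. Over all genes, 421 were called, against 0 without a trend (1579 at an unadjusted p under 0.05), 246 with DESeq2 and 236 to 377 with each library left out, the fewest without WT replicate 2 and 244 without replicate 1 of those labelled Rxra-KO. Without a trend, none of *Maf*, *Egr2*, *Klf4*, *Klf6* and *Cebpd* was called, and *Egr2* was not called with DESeq2 (adjusted p = 0.358). The difference in summed share was -0.00337 percentage points without *Dusp1* and -0.00895 to -0.00533 with each library left out. Where a library was left out, the lone library was assumed to vary like those of the other group. The cause of these shifts was not tested, beyond the fewer libraries or genes that an alternative used.

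Same-numbered libraries hardly deviated together (r = 0.063 across 10049 genes, which are not independent), so the numbers were not taken to pair the samples. With a replicate block, 540 genes were called and 1 of the 10, *Dusp1* (adjusted p = 0.0240).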
